A study of Mus musculus with 6 samples.

Results

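The genes of bile acid transport and of the farnesoid X receptor (FXR) axis were examined in large-intestinal epithelium sorted from germ-free mice. The 9 genes were taken from the known pathway: Slc10a2, Fabp6, Slc51a and Slc51b for transport, Nr1h4 for the nuclear receptor FXR, Nr0b2 for the corepressor that it induces, Fgf15 and Fgfr4 for the hormone and its receptor, and Gpbar1 for the membrane receptor. They were chosen with earlier results of these data known. All 9 were measured, among 19533 genes in all, each by 1 probe set that names no other gene. The germ-free HDAC3ΔIEC mice, of strain C57BL/6, carry a knockout of Hdac3 intrinsic to intestinal epithelial cells (3 arrays). The germ-free HDAC3FF controls are of the same strain and, as FF denotes by convention, carry floxed alleles (3 arrays). Each array held total RNA of live EpCAM+ cells from 1 biological replicate, and whether a replicate is a single mouse or a pool is not stated. The sources used here do not name the Cre driver of the deletion or the age and sex of the mice. The comparison asks how transcripts of these cells differ with epithelial Hdac3 when no bacteria are present.

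In the gut, conjugated bile acids enter the absorptive cell through the apical sodium-dependent transporter, are carried through the cytosol by a small binding protein and leave through a basolateral transporter made of different subunits. Inside the cell they activate FXR, a nuclear receptor that pairs with RXR and that in mouse ileum drives the genes of the binding protein, the exporter, the corepressor SHP and the hormone FGF15. FGF15 travels to the liver and lowers bile acid synthesis through FGFR4 and its coreceptor β-Klotho. This system is best known from the ileum, the main site of active bile acid uptake, and is used less in the large intestine. Nuclear receptors without ligand recruit corepressor complexes, and HDAC3 is the deacetylase in those complexes.

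Promoter sequence is shown for the 4 genes whose signals differed most between the genotypes, since FXR is known to bind an inverted repeat of the hexamer AGGTCA with 1 base between the copies. The sequences are the 250 bases before the RefSeq start in assembly GRCm38.p6, written 5′ to 3′ along the gene's own strand. They lie at chr11:43601563-43601812 (minus strand) for Fabp6, chr9:65422774-65423023 (minus strand) for Slc51b, chr4:133553126-133553375 (plus strand) for Nr0b2 and chr8:5105288-5105537 (minus strand) for Slc10a2. Capitals mark matches on either strand to the hexamer AGGTCA, to a loose inverted repeat with at most 1 changed base in each copy, to the LRH-1 site CAAGGNCA or to the CDX site TTTATNG.
Fabp6: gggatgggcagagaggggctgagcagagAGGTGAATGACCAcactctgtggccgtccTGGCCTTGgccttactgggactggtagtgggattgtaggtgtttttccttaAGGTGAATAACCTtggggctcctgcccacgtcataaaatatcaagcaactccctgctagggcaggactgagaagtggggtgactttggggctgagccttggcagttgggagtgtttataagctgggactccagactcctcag
Slc51b: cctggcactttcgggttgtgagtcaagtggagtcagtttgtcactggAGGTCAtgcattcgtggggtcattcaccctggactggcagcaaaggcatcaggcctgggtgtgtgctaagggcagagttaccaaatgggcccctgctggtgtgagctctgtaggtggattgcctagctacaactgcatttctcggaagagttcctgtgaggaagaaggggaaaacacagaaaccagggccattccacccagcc
Nr0b2: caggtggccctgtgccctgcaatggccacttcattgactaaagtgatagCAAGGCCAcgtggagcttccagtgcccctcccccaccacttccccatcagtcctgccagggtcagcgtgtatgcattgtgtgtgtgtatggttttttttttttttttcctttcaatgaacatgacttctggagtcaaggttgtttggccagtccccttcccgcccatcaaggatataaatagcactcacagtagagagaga
Slc10a2: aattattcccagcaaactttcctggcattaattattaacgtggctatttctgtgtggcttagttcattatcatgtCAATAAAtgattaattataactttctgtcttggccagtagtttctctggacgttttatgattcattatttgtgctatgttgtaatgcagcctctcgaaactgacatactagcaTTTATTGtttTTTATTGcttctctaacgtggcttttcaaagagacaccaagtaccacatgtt

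The Fabp6 window held 2 loose inverted repeats, AGGTGAATGACCA from 222 to 210 bases and AGGTGAATAACCT from 142 to 130 bases before the start, each with 1 changed base per copy. It was the only 1 of the 8 member promoters in the table with such a match, which 0.618% of all 32851 promoters held. The exact repeat AGGTCANTGACCT was in none of the 8. Of all promoters, 2 (0.00609%) held it. Fabp6, Nr0b2 and Slc51a each had an LRH-1 site (5.53% of all promoters), and Slc51b, Nr1h4 and Slc51a each had the hexamer AGGTCA (14%). In the Slc10a2 window the CDX site matched at 3 places, and no other member promoter held it (9.81% of all). These are matches of letters in a short window and not measured binding.

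Values below are the deposited log2 signals, so a difference of 1 is a 2-fold change, and the level of a gene is not compared with that of another gene. Array medians lay between 5.25 and 5.31. Hdac3 itself read 6.58, 6.22 and 6.00 in HDAC3ΔIEC cells, against 6.96, 7.36 and 7.04 in HDAC3FF cells, a log2 difference of -0.86 ± 0.17 (SE) with no overlap, which missed the threshold (limma adjusted p = 0.0937). Where its probes lie relative to the deleted part is not known here, and probes outside that part check nothing. The sorted population carried the epithelial genes Krt8 (12.8 to 13.1) and Krt19 (11.9 to 12.4) on every array. Of the genes listed as large intestine markers, the carbonic anhydrase Car1 read 12.8 to 13.1 and the mucin Muc2 12.4 to 12.8 on all arrays. Muc2 is not particular to the large intestine. The brightest small intestine markers were high as well, Fabp2 at 12.6 to 12.9 and Apob at 10.01 to 11.4. In limma's estimate of array quality, replicate 3 of each group had the lowest weight (0.654 in HDAC3ΔIEC and 0.475 in HDAC3FF, against 1.01 to 1.63 on the other arrays), so results are also given without them.

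Of the 9 transcripts, Fabp6 and Slc10a2 had the largest differences between the genotypes, in opposite directions, and neither passed the test. The Fabp6 signal was 4.68-fold higher on average and the Slc10a2 signal was 32.3% of the control level. Slc51b, which encodes the smaller exporter subunit, read 1.70-fold higher, and Nr0b2 rose 1.65-fold. Slc51a, Nr1h4, Fgf15, Fgfr4 and Gpbar1 had log2 fold changes between -0.12 and 0.24. At a limma adjusted p under 0.05 over all genes, 1 of the 9 was called higher, namely Nr0b2, and 0 were called lower. At an unadjusted p under 0.05, Slc10a2 was the 1 lower gene. Of all genes 0.701% were called in either direction, 0.369% higher and 0.333% lower. The groups did not overlap for 5 of the 9, against 16.2% of all genes. A log2 difference of at least 0.7 was held by 4 of the 9, against 2.24% of all genes, and one of at least 1 by 2 of the 9. Because the 9 were chosen with earlier results of these data known, these shares are descriptions and do not test the set. The median log2 fold change of the 9 was 0.07, against 0.01 over all genes.

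**Figure D1:**
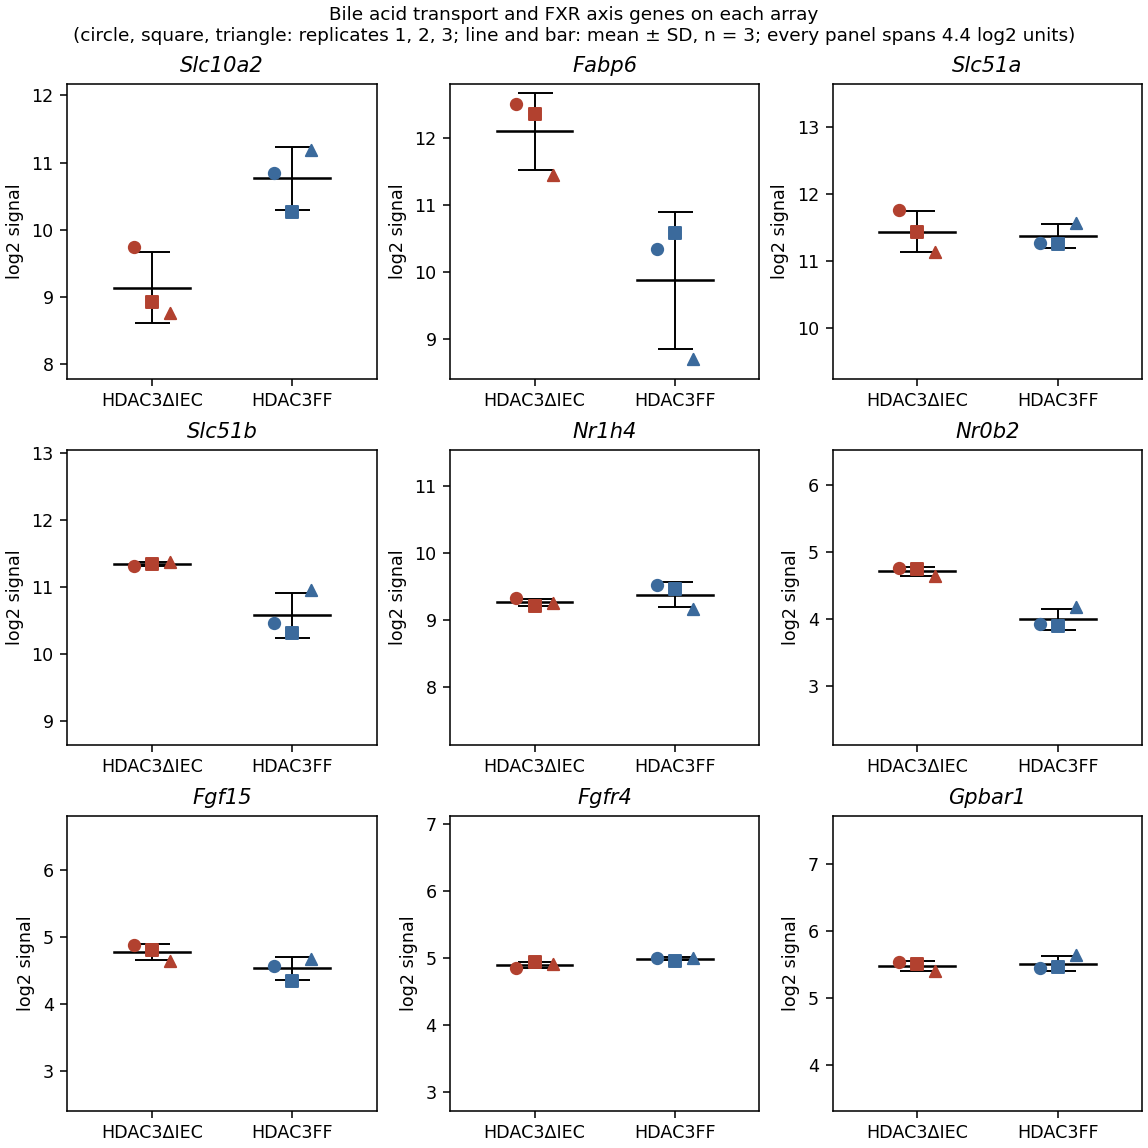
Log2 signal of each of the 9 genes on the 3 HDAC3ΔIEC arrays (left) and the 3 HDAC3FF arrays (right), with circles, squares and triangles for replicates 1, 2 and 3 and a line and bar for the mean ± SD. Fabp6, Slc51b and Nr0b2 lie higher and Slc10a2 lies lower in all HDAC3ΔIEC arrays, while Slc51a, Nr1h4, Fgf15 and Gpbar1 overlap between the groups.

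Slc10a2 encodes ASBT, the sodium-dependent carrier that takes bile acids up across the apical membrane. Its signal was 9.74, 8.92 and 8.75 in HDAC3ΔIEC cells, against 10.85, 10.26 and 11.19 in HDAC3FF cells. Every HDAC3ΔIEC array lay under every control array, by at least 0.53. The means were 9.13 ± 0.53 in HDAC3ΔIEC and 10.77 ± 0.47 in HDAC3FF (SD, n = 3 each). The log2 fold change of -1.63 ± 0.31 (SE, 95% interval -2.36 to -0.90) missed the threshold (limma adjusted p = 0.0807). It was -1.42 without HDAC3FF replicate 3 and did not pass there either (limma adjusted p = 0.0749). Without replicate 3 of both groups it was smaller in size, at -1.23, and did not pass. With an intensity trend in the variance model the gene passed (limma adjusted p = 0.0445). RNA came from whole sorted populations, so fewer cells that express a gene and less RNA per cell cannot be told apart.

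Fabp6 encodes the ileal bile acid-binding protein, which carries bile acids in the cytosol and is a classical FXR target of the ileum. It read 12.51, 12.35 and 11.44 in HDAC3ΔIEC cells, against 10.35, 10.58 and 8.70 in HDAC3FF cells. The groups were separated by 0.87, and HDAC3FF replicate 3 lay well under the other control arrays. The log2 fold change was 2.23 ± 0.51 (SE), a 95% interval from 2.05-fold to 10.7-fold, and did not pass (limma adjusted p = 0.125). Without HDAC3FF replicate 3 it was 1.64 and passed (limma adjusted p = 0.0459), and without replicate 3 of both groups it was 1.97 (limma adjusted p = 0.00172). It did not pass with any other single array left out (limma adjusted p up to 0.392), nor with the replicate number as a block (limma adjusted p = 0.0791). The control SD of 1.02 was the largest of the 9 genes in either group. On the control array where Fabp6 was lowest, Slc10a2 was at its highest control value.

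The basolateral exporter is a heterodimer of OSTα, encoded by Slc51a, and OSTβ, encoded by Slc51b, and both are needed for transport. Slc51b read 11.31, 11.35 and 11.37 in HDAC3ΔIEC cells, against 10.46, 10.32 and 10.96 in HDAC3FF cells. The HDAC3ΔIEC arrays lay close together and all above the controls. The log2 fold change of 0.76 ± 0.16 (SE, 95% interval 0.38 to 1.14) did not pass (limma adjusted p = 0.107). Without HDAC3FF replicate 3, the highest control, it was 0.95 and passed (limma adjusted p = 0.00738), and with array weights it was 0.84 and passed (limma adjusted p = 0.0253). It did not pass with any other single array left out (limma adjusted p up to 0.339), nor with the replicate number as a block (limma adjusted p = 0.186).

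Slc51a showed no such separation. It read 11.75, 11.43 and 11.13 in HDAC3ΔIEC cells, against 11.27, 11.26 and 11.57 in HDAC3FF cells, with overlapping groups. The log2 fold change was 0.07 (SE 0.17, adjusted p = 0.942 in limma), with an interval from 0.797-fold to 1.39-fold. Its sign turned to -0.08 without HDAC3ΔIEC replicate 1. Slc51b minus Slc51a was -0.44, -0.09 and 0.25 in HDAC3ΔIEC cells and -0.81, -0.94 and -0.62 in HDAC3FF cells, a difference of 0.69 between the means of that log2 difference, with no overlap (exact permutation test, two-sided p = 0.1, the lowest value open to groups of 3). The pair was chosen after its values were seen.

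Nr1h4, the gene of FXR itself, read 9.33, 9.22 and 9.26 in HDAC3ΔIEC cells, against 9.52, 9.46 and 9.17 in HDAC3FF cells. The groups overlapped, with the lowest value of all on HDAC3FF replicate 3. Its log2 fold change was -0.12 (SE 0.11, adjusted p = 0.814 in limma), with an interval from 0.769-fold to 1.11-fold. A 2-fold change in either direction lies outside that interval.

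Nr0b2 encodes SHP, an orphan receptor without a DNA-binding domain that FXR induces and that represses other nuclear receptors. Its signal was 4.77, 4.75 and 4.65 in HDAC3ΔIEC cells, against 3.93, 3.90 and 4.18 in HDAC3FF cells. All HDAC3ΔIEC arrays lay at least 0.47 above all control arrays. The means were 4.72 ± 0.07 in HDAC3ΔIEC and 4.0 ± 0.16 in HDAC3FF (SD, n = 3 each), and the log2 fold change was 0.72 (SE 0.10, adjusted p = 0.0383 in limma). The probe set was dim, under the median gene on all 6 arrays and at the 31.8th percentile of mean signals, and the deposited values carry no mark of what lies above background. Without HDAC3FF replicate 3 the gene also passed (limma adjusted p = 0.0118). It no longer passed without HDAC3FF replicate 1 or 2 or without HDAC3ΔIEC replicate 1, 2 or 3 (limma adjusted p = 0.148, 0.117, 0.142, 0.181 and 0.0881), at log2 fold changes between 0.67 and 0.76.

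The genes whose centred signals over the 6 arrays were most like those of Nr0b2 were Pfkp, a phosphofructokinase, Tmem236, a membrane protein gene, and Galnt3, a glycosyltransferase of mucin-type O-glycans. Their root mean square differences from Nr0b2 were 0.0795, 0.0821 and 0.0951 on the log2 scale. Tmem236 (log2 fold change 0.67, limma adjusted p = 0.0456) and Galnt3 (0.74, limma adjusted p = 0.028) passed, and Pfkp (0.62, limma adjusted p = 0.0959) did not. They were picked out of all genes for their likeness to Nr0b2 on these same arrays. Fold changes near that of Nr0b2 therefore follow from the choice and are no further support for it.

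**Figure D2:**
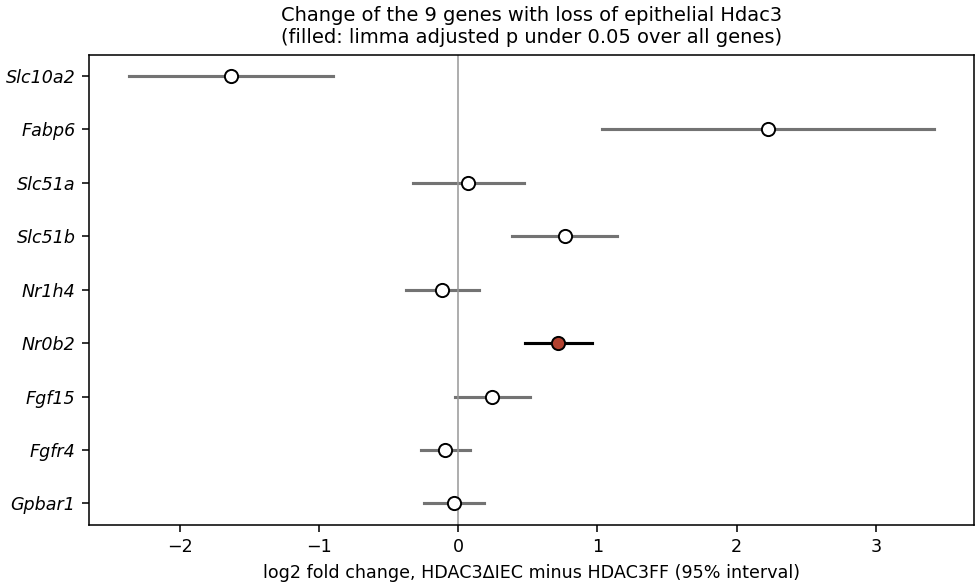
Log2 fold change of the 9 genes, HDAC3ΔIEC minus HDAC3FF, with limma's 95% interval. The intervals of Slc10a2, Fabp6, Slc51b and Nr0b2 do not reach 0, and only Nr0b2, drawn filled, passed at an adjusted p under 0.05 over all genes.

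Fgf15, the mouse hormone that FXR induces in the ileum, was dim in both groups. It read 4.88, 4.81 and 4.65 in HDAC3ΔIEC cells, against 4.58, 4.35 and 4.68 in HDAC3FF cells, under the median gene on all 6 arrays. The groups overlapped by a small margin on the replicate 3 arrays. The log2 fold change of 0.24 ± 0.11 (SE) missed the threshold (limma adjusted p = 0.502), with an interval from 0.983-fold to 1.43-fold.

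Fgfr4, which encodes the FGF15 receptor of hepatocytes, was likewise under the median gene on every array. It read 4.85, 4.94 and 4.91 in HDAC3ΔIEC cells, against 5.005, 4.97 and 5.01 in HDAC3FF cells. The groups were separated by 0.025, less than the SD of 0.05 within HDAC3ΔIEC, and the log2 fold change of -0.09 ± 0.08 (SE) missed the threshold (limma adjusted p = 0.761). With quantile normalization or with each array centred on its median, 4 and not 5 of the 9 genes had groups that did not overlap.

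Gpbar1 encodes TGR5, the membrane receptor for bile acids that is known from enteroendocrine L cells, gallbladder and macrophages. Its signal was 5.55, 5.51 and 5.40 in HDAC3ΔIEC cells, against 5.45, 5.46 and 5.65 in HDAC3FF cells. The groups overlapped, and the log2 fold change was -0.03 (SE 0.09, adjusted p = 0.954 in limma), with an interval from 0.841-fold to 1.14-fold. On the same arrays, 2 of 12 measured enteroendocrine markers rose, against 0.369% of all genes, and 10 did not pass. With no overlap 9 of the 12 were higher in HDAC3ΔIEC, against 8.45% of all genes. The 2 were the peptide hormone genes Insl5 (8.86, 9.55 and 9.01 in HDAC3ΔIEC, against 6.15, 5.53 and 6.53 in HDAC3FF, limma adjusted p = 0.00923) and Pyy (11.41, 11.27 and 11.40 in HDAC3ΔIEC, against 8.93, 8.52 and 9.95 in HDAC3FF, limma adjusted p = 0.0405). Insl5 no longer passed without HDAC3FF replicate 1 or HDAC3ΔIEC replicate 2 (limma adjusted p = 0.066 and 0.0554). Pyy passed without HDAC3FF replicate 3 but not with any other single array left out (limma adjusted p from 0.0829 to 0.17), nor with adjustment over all probe sets (limma adjusted p = 0.0528). The summed signal of the 12 markers ran from 13.10 to 13.52 in HDAC3ΔIEC cells and from 11.38 to 12.37 in HDAC3FF cells (log2 of the sum). In the myeloid list, which covers macrophages, the complement gene C1qa fell (log2 fold change -1.71 ± 0.19, SE, limma adjusted p = 0.0204) and 12 of 13 did not pass. Of all genes 0.333% fell. C1qa no longer passed without HDAC3FF replicate 1 or HDAC3ΔIEC replicate 2 or 3 (limma adjusted p = 0.0633, 0.123 and 0.0736). With no overlap, C1qa was the 1 lower gene of the list, and Cd68, Itgax and Cx3cr1 were higher (log2 fold changes 0.51, 0.14 and 0.22), against 7.7% lower and 8.45% higher of all genes. The genes of the other C1q chains, C1qb and C1qc, overlapped between the groups (log2 fold changes 0.07 and -0.11, limma adjusted p = 0.902 and 0.812). The summed signal of the list ran from 8.87 to 9.07 in HDAC3ΔIEC and from 9.17 to 9.35 in HDAC3FF. As a sum of unlogged signals it rests mostly on the brighter genes, such as Cd14 and C1qa, and 10 of the 13 lay under the median gene. The median log2 fold change of the list was 0.01, and 7 of the 13 were positive. The pan-leukocyte gene Ptprc read 4.14 to 4.67 on all arrays. The part of these cells in the Gpbar1 values was not tested.

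**Figure D3:**
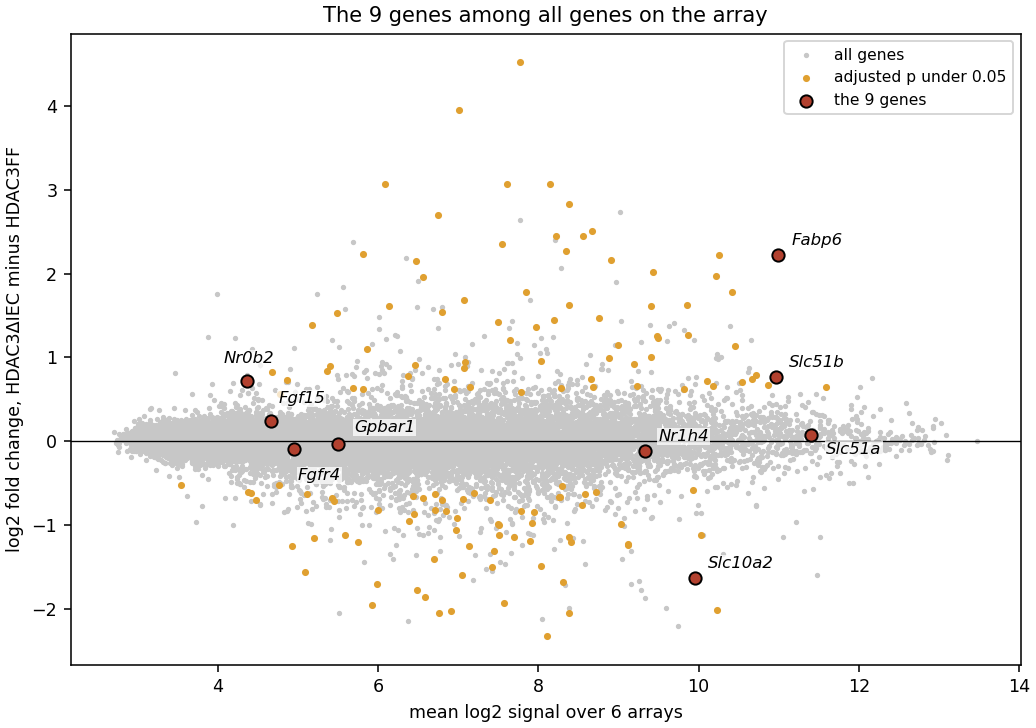
Log2 fold change, HDAC3ΔIEC minus HDAC3FF, against the mean log2 signal over the 6 arrays for all genes (grey), genes with a limma adjusted p under 0.05 (orange) and the 9 genes (red). Fabp6, Slc51b, Slc51a, Slc10a2 and Nr1h4 lie at the bright end, and Nr0b2, Fgf15 and Fgfr4 at the dim end.

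Around these genes, FXR's heterodimer partner gene Rxra differed by 0.15 (SE 0.12, adjusted p = 0.742 in limma). Among 14 measured FXR partners and cofactors, 1 rose, none fell and 13 did not pass, with a median log2 fold change of 0.02. Of all genes 0.369% rose and 0.333% fell by the same test. With no overlap 3 of the 14 were higher and 2 lower, against 8.45% and 7.7% of all genes, and Hdac3 itself was among the lower. The 1 that rose was Tbl1x, which encodes a subunit of the NCoR and SMRT corepressor complexes that hold HDAC3. It read 9.02, 9.06 and 8.92 in HDAC3ΔIEC cells, against 8.29, 8.47 and 8.30 in HDAC3FF cells (limma adjusted p = 0.0355). Tbl1x passed without HDAC3FF replicate 3 and did not pass with any other single array left out (limma adjusted p from 0.0751 to 0.172), nor with an intensity trend (limma adjusted p = 0.0684).

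None of 7 other bile acid receptor genes passed, with a median of 0.04. The pregnane X receptor gene Nr1i2 had a log2 fold change of 0.53 (SE 0.12, adjusted p = 0.128 in limma) and the muscarinic receptor gene Chrm3 one of -0.41 ± 0.16 (limma adjusted p = 0.393). None of 14 other transporters of bile acids and organic anions passed either (median 0.01). The efflux pump gene Abcb1a read 11.63, 11.80 and 11.81 in HDAC3ΔIEC cells, against 11.06, 11.12 and 11.36 in HDAC3FF cells, with no overlap (limma adjusted p = 0.0823). The uptake carrier gene Slco2b1 had a log2 fold change of -0.67 (SE 0.18, adjusted p = 0.178 in limma).

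The hepatic uptake and export genes Slc10a1 and Abcb11 read 5.06 to 5.40 and 3.46 to 3.62 over all arrays. None of 14 bile acid synthesis and conjugation genes passed (median -0.08), and 9 of the 14 lay under the median gene. Baat, which encodes a bile acid conjugation enzyme, read 4.80, 4.67 and 4.70 in HDAC3ΔIEC cells, against 5.24, 5.09 and 5.12 in HDAC3FF cells (limma adjusted p = 0.0936). Scp2, a sterol carrier with a peroxisomal thiolase, had a log2 fold change of 0.34 (SE 0.09, adjusted p = 0.177 in limma). Of 7 hepatocyte markers none passed, and their summed signal ran from 8.87 to 9.54 in HDAC3ΔIEC and from 10.23 to 10.77 in HDAC3FF (log2 of the sum). As a sum of unlogged signals it rests mostly on the brighter genes Ttr and Tat, and 5 of the 7 lay under the median gene. Ttr was the 1 lower gene of the list with no overlap, and 0 were higher, against 7.7% and 8.45% of all genes. Ttr, which encodes the thyroid hormone carrier transthyretin, read 8.96, 7.99 and 8.22 in HDAC3ΔIEC cells, against 10.28, 10.55 and 9.65 in HDAC3FF cells (limma adjusted p = 0.062), while albumin, Alb, stayed between 3.54 and 3.835.

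Among 8 genes of FGF15 signalling, 1 fell (against 0.333% of all genes), none rose and 7 did not pass (median 0.01). With no overlap 3 of the 8 were lower and 0 higher, against 7.7% and 8.45% of all genes. Fgfr2, a relative of Fgfr4 and the receptor of the FGF7 and FGF10 growth factors on epithelium, read 7.91, 7.01 and 7.47 in HDAC3ΔIEC cells, against 8.998, 9.08 and 9.37 in HDAC3FF cells. It was 3.21-fold lower with no overlap (log2 fold change -1.68 ± 0.22, SE, limma adjusted p = 0.0329). It passed without HDAC3FF replicate 3 or HDAC3ΔIEC replicate 1 and did not pass with any of the other 4 arrays left out (limma adjusted p from 0.0914 to 0.122).

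None of 17 other FXR targets of gut or liver passed, with a median log2 fold change of 0.00. The cytokine gene Il18 read 7.68, 7.44 and 7.003 in HDAC3ΔIEC cells, against 8.61, 8.95 and 7.91 in HDAC3FF cells (limma adjusted p = 0.16). Cbs, which makes cystathionine from homocysteine, had a log2 fold change of -0.77 (SE 0.24, adjusted p = 0.256 in limma). Of these 17 genes, 3 were higher and 2 lower in HDAC3ΔIEC with no overlap, against 8.45% and 7.7% of all genes. The 2 lower were Il18 and Cbs, and the 3 higher were Nos2, Sdc1 and Mafg (log2 fold changes 0.65, 0.37 and 0.29). The list does not sort its genes by the direction in which FXR acts on them, so its median does not measure FXR activity. The 8 measured targets of the vitamin D and pregnane X receptors gave no call (median 0.11). The sulphotransferase gene Sult1a1 had a log2 fold change of -1.67 (SE 0.28, adjusted p = 0.062 in limma) and Cyp3a13 one of 0.42 ± 0.13 (limma adjusted p = 0.257).

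Of 15 measured regulators of ileal bile acid genes, 1 fell (against 0.333% of all genes), none rose and 14 did not pass (median -0.03). With no overlap 2 of the 15 were lower and 1 higher, against 7.7% and 8.45% of all genes. Hnf4g, a nuclear receptor of the absorptive lineage, read 7.73, 7.05 and 7.06 in HDAC3ΔIEC cells, against 8.97, 8.76 and 8.59 in HDAC3FF cells. It was 2.82-fold lower with no overlap (log2 fold change -1.49 ± 0.20, SE, limma adjusted p = 0.0334), and passed without HDAC3FF replicate 3 or HDAC3ΔIEC replicate 1 but not with any of the other 4 arrays left out (limma adjusted p from 0.0921 to 0.147). Gata4, which in mouse keeps ileal genes such as Slc10a2 off in the jejunum, read 5.36 to 5.602 on all arrays.

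**Figure D4:**
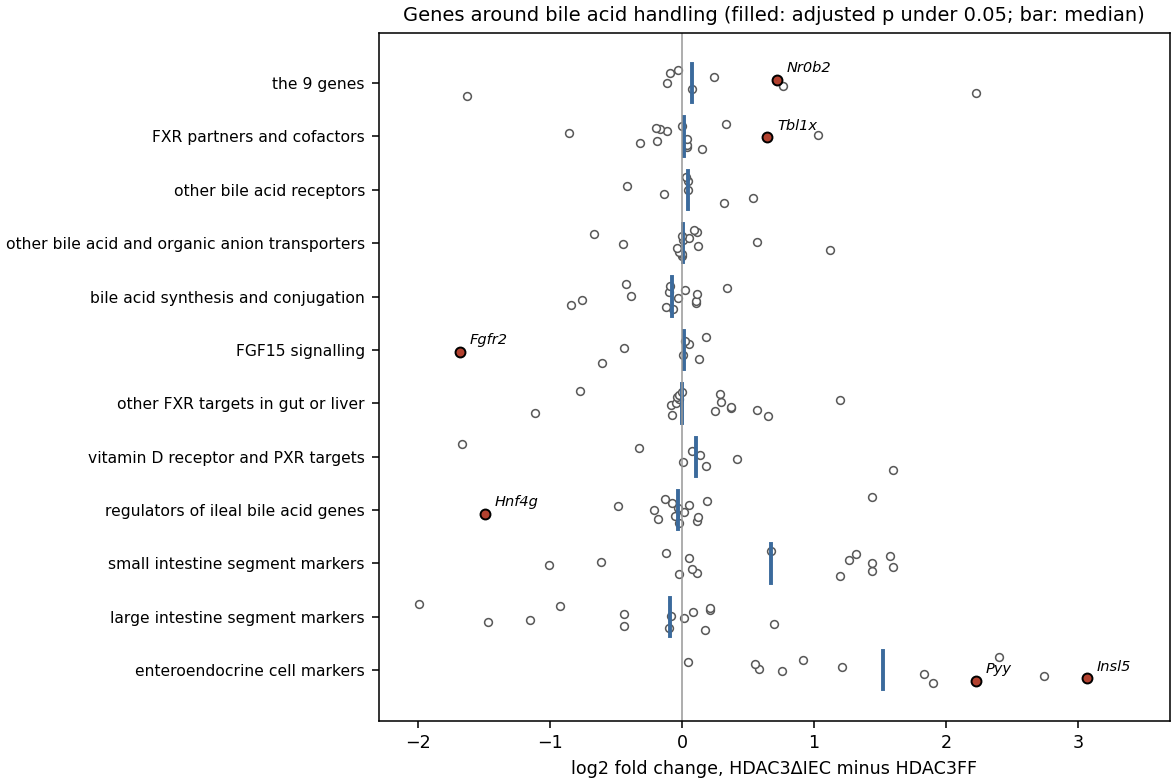
Log2 fold change, HDAC3ΔIEC minus HDAC3FF, of every measured gene in the 9-gene set, 8 surrounding lists and 3 marker lists, with filled points for a limma adjusted p under 0.05 and a bar for each median. The medians of the 8 surrounding lists lie between -0.08 and 0.11, while those of the small intestine and enteroendocrine markers are 0.68 and 1.52.

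Because Fabp6 and Slc10a2 are ileal genes, markers of gut position are given beside them. None of 15 small intestine markers passed. Their median log2 fold change was 0.68, 11 were positive, and with no overlap 7 were higher and 2 lower in HDAC3ΔIEC, against 8.45% and 7.7% of all genes. The 7 were Sis, Mttp, Creb3l3, Apoa4, Ada, Adh6a and Lct (log2 fold changes from 0.07 to 1.602), and the 2 were Alpi and Apob. The brightest, Fabp2 and Apob, had log2 fold changes of 0.06 ± 0.10 and -0.62 ± 0.23 (SE). Fabp2 overlapped between the groups, and its sign turned to -0.04 without HDAC3FF replicate 2. The summed signal of the list ran from 13.52 to 13.89 in HDAC3ΔIEC and from 13.31 to 13.87 in HDAC3FF (log2 of the sum), so the groups overlapped. None of 14 large intestine markers passed (median -0.09). With no overlap 4 were lower, namely Slc37a2 (-2.00), Ang4 (-1.47), Retnlb (-1.15) and Slc26a3 (-0.44), and 2 were higher, namely Aqp8 (0.69) and Car1 (0.17), as log2 fold changes. Their summed signal ran from 14.75 to 14.96 in HDAC3ΔIEC and from 14.96 to 15.05 in HDAC3FF. Here too the groups overlapped, since HDAC3ΔIEC replicate 1 (14.9594) lay above HDAC3FF replicates 1 and 2 (14.9575 and 14.9584). Whether gut position or segment had a part in the Fabp6 and Slc10a2 values was not tested.

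**Figure D5:**
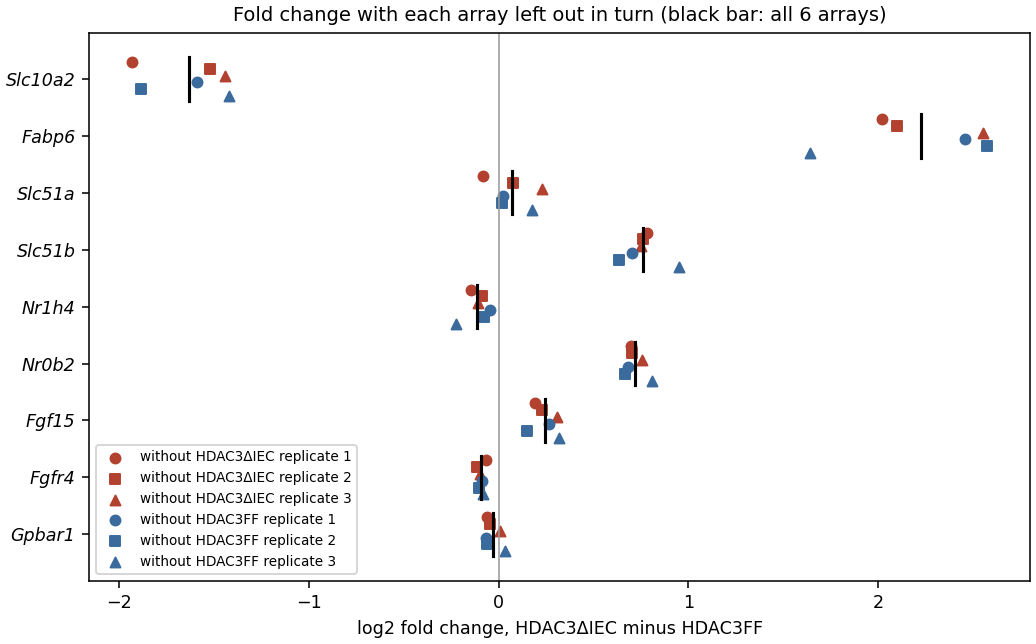
Log2 fold change of the 9 genes, HDAC3ΔIEC minus HDAC3FF, with each of the 6 arrays left out in turn (symbols) and with all arrays (black bar). Fabp6 ranged from 1.64 to 2.58, Slc10a2 from -1.93 to -1.42, Slc51b from 0.63 to 0.95 and Nr0b2 from 0.67 to 0.81, while Slc51a and Gpbar1 crossed 0.

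Of the 9 genes, the number passing was 0 without HDAC3FF replicate 1 or 2 or any 1 HDAC3ΔIEC array, where 13 to 46 of all genes passed. It was 3 without HDAC3FF replicate 3, namely Fabp6, Slc51b and Nr0b2, where 430 of all genes passed. In the fit with all arrays 4 of the 9 had an unadjusted p under 0.05, against 11.2% of all genes, a description of genes chosen with earlier results known.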

How the data were processed

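The labels' protocols state Trizol extraction of total RNA, and the labels give biotin as the label. The authors deposited 1 log2 signal per probe set and array, judged from the range of the values. Per the submitters' processing notes, Affymetrix Power Tools was used. Its version and the background correction and normalization: not given in the sources used here. Of 24939 probe sets, 21105 name 1 gene in the platform annotation, 1254 several and 2580 none. Per gene the probe set with the highest mean was kept (19533 genes). Symbols were checked against RefSeq (GRCm38.p6) by Entrez number, and 0 changed.

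The HDAC3ΔIEC and HDAC3FF arrays were compared in limma 3.58.1 in R 4.3.3 (lmFit, eBayes, two-sided, no covariate, 3.26 prior degrees of freedom), with Benjamini-Hochberg adjustment over all 19533 genes. Genes were called at an adjusted p under 0.05. The SE and 95% intervals are limma's moderated ones. P-values measure the spread between the stated biological replicates, and with 3 arrays each their number limits the precision. On simulated data of this comparison (19533 genes, 3 arrays against 3), 26% of genes changed by 0.5, 79.2% by 1 and 96.8% by 2 on the log2 scale were called. The changed genes were drawn at random and the noise was independent and normal. These shares are thus averages over genes and do not hold for a gene of wide spread such as Fabp6 (control SD 1.02).

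The members and lists were chosen with earlier results of these data known. Named genes are the 9 members, Hdac3, for each pathway list the called genes or the 2 with the smallest p, for each marker list the called genes or the 2 brightest, and the 3 genes nearest in profile to each called member. Rxra, Gata4, Ptprc, Alb, Slc10a1, Abcb11, C1qb, C1qc, Cd14, Nos2, Sdc1, Mafg and the markers named for not overlapping were named in addition. All of these were chosen after their values were seen. The 8 pathway lists hold 96 measured genes, and 17 list entries were not measured here. The other marker lists gave no call: T and NK cells (9 genes, median 0.06; Ccl5 -0.26, Cd3e -0.22), B and plasma cells (7, -0.12; Xbp1 -0.26, Ighm -0.12), fibroblasts and muscle (11, 0.01; Tagln 0.27, Vim 0.49), endothelium (8, -0.01; Lyve1 0.21, Cldn5 0.10), sorted epithelium (6, 0.22; Krt8 0.26, Krt19 0.30) and hepatocytes (7, -0.08; Ttr -1.77, Tat -0.33), as log2 fold changes. These pairs were chosen for brightness and do not stand for their lists. Positive values were held by 6 of 9, 3 of 7, 6 of 11, 3 of 8, 5 of 6 and 2 of 7 genes, in that order. With no overlap 3, 0, 1, 0, 3 and 0 genes were higher, against 8.45% of all genes. Lower with no overlap were 1, 1, 1, 1, 0 and 1, against 7.7%.

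Promoter sequences and their coordinates are from RefSeq (GRCm38.p6), where 8 of the 9 genes matched. The form of the loose repeat, at most 1 changed base in each copy, was settled after the promoters were seen. Exact tests used scipy 1.17.1 and figures matplotlib 3.10.9.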

Additional observations from a re-analysis of the deposited data

How the results depend on the processing

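Results were recomputed with array weights, a replicate block, a robust prior or an intensity trend, quantile normalization, median centring, filters on dim genes, the mean of all probe sets, adjustment over all probe sets, an adjusted p under 0.10 and the omission of each array. Omission of replicate 3 of both groups, the wider promoter window and the exact permutation test after quantile normalization or median centring were added after the data were seen. The labels do not say whether same-numbered arrays of the 2 groups have more than a number in common. Their deviations from the group means correlated at -0.02, -0.07 and -0.20, against -0.21 to 0.20 for the other pairs of arrays. Such deviations cancel within each group, so these correlations depend on one another, and a link between the arrays was not tested. With the replicate block 12 genes, 0 members and 0 pathway genes passed, against 137, 1 and 3 in the fit without it, and Insl5, Pyy and C1qa no longer passed (limma adjusted p = 0.0798, 0.0989 and 0.103). The passing genes numbered 357 with array weights, 90 with adjustment over all probe sets, 321 at an adjusted p under 0.10 and 744 without replicate 3 of both groups. Members passing were 2 with an intensity trend (Slc10a2 and Nr0b2), 3 with array weights (Fabp6, Slc51b and Nr0b2), 2 at an adjusted p under 0.10 and 3 without replicate 3 of both groups. With a dim filter at the median, Nr0b2, Fgf15 and Fgfr4 were not tested and the 1 member passing was Slc10a2 (limma adjusted p = 0.0428, in a range from 0.0428 to 0.305 over its alternatives). Pathway genes passing were 8 with array weights, 9 at an adjusted p under 0.10 and 18 without replicate 3 of both groups.

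With each array left out in turn the passing genes ranged from 13 to 430, the members from 0 to 3, the pathway genes from 0 to 11 and the median of the members from -0.0625 to 0.228; without replicate 3 of both groups that median was 0.33. Gpbar1 turned positive with array weights (0.0193) and without HDAC3FF replicate 3 (0.0316), HDAC3ΔIEC replicate 3 (0.0091) or both (0.0732), and its lowest value with an array left out was -0.0691. Tat did so under the same alternatives, at 0.0414, 0.0044, 0.0887 and 0.424, with a lowest value of -0.688. Slc51a turned to -0.0845 without HDAC3ΔIEC replicate 1 (highest 0.331, without replicate 3 of both groups), Fabp2 to -0.0421 without HDAC3FF replicate 2 (highest 0.128, without replicate 3 of both groups), and Ighm to 0.0355 with the mean of all probe sets. The cause of these changes was not tested, beyond the fewer arrays or the larger number of tests that omission and adjustment over all probe sets bring. The counts of promoter matches among the members were equal in the 300-base window. The signals of Nr0b2, Fgf15 and Fgfr4 are dim, which limits what their values can show.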

Other observations

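Of the surrounding genes, 5 more were picked after their values were seen, and none of them passed over all genes in the unweighted test on 1 probe set per gene. On the same 6 arrays Creb3l3 passed with array weights and Tbl1xr1 with the mean of all probe sets. Tbl1xr1, a close relative of Tbl1x in the same corepressor complexes, read 8.87, 9.09 and 9.51 in HDAC3ΔIEC cells, against 7.79, 8.43 and 8.15 in HDAC3FF cells (limma adjusted p = 0.0966). Creb3l3, a membrane-bound transcription factor of lipid-handling gut and liver cells, read 8.31, 8.54 and 8.32 in HDAC3ΔIEC cells, against 6.82, 6.37 and 7.66 in HDAC3FF cells (limma adjusted p = 0.0997). The multidrug resistance protein gene Abcc2, an apical export pump, read 6.28, 6.65 and 5.29 in HDAC3ΔIEC cells and 5.18, 5.01 and 4.67 in HDAC3FF cells (limma adjusted p = 0.234). Tbl1xr1, Creb3l3 and Abcc2 had no overlap between the groups.

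The calcium channel gene Trpv6, a target of the vitamin D receptor, read 9.23, 7.53 and 6.03 in HDAC3ΔIEC cells, against 6.21, 6.32 and 5.46 in HDAC3FF cells (limma adjusted p = 0.475). The HDAC3ΔIEC arrays were spread widely and overlapped the controls. Klb, the β-Klotho coreceptor of FGF15, read 4.07, 4.66 and 4.54 in HDAC3ΔIEC cells, against 4.67, 5.10 and 5.31 in HDAC3FF cells, at dim signals (limma adjusted p = 0.315).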
